A study of Mus musculus with 80 samples.

Results

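The genes described here are 8 homeobox transcription factors, *Lmx1a*, *Lmx1b*, *Alx1*, *Alx4*, *Barx1*, *Barx2*, *Pitx1* and *Pitx3*, out of 25899 genes measured in muscle stem cells (MuSCs). They were chosen as homeobox genes known to stand higher in MuSCs of the extraocular muscles (EOM) than of the *Tibialis anterior* (TA) before grafting, together with their paralogues, so levels before grafting entered the choice. Those levels are therefore given as a description, and the members were tested only between EOM and TA grafts.

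MuSCs were sorted by FACS on GFP from *Tg*:*Pax7-nGFP* male donor mice (C57BL/6;DBA2 F1/JRj), in which nuclear GFP is driven by the regulatory region of *Pax7*, so the sort selects cells that read this gene. The donors were 10 mice, 4 in Experiment 1 with an age of 7.6 weeks and 6 in Experiment 2 with an age of 7 weeks. EOM and TA cells of each donor were sequenced directly from 500 cells, or injected into the cardiotoxin-injured TAs of an immunodeficient Rag2-/-;γC-/- mouse (C57BL/6J), the EOM cells in one leg and the TA cells in the other, and sorted again by GFP on day 21 according to the labels. Such hosts lack T, B and NK cells but keep myeloid cells, vessels, connective tissue and MuSCs of their own without GFP. Of 40 RNA libraries 30 passed the quality limits of the study, which left 8 EOM and 8 TA libraries before grafting and 7 EOM and 7 TA grafts. By the labels EOM grafts held 9 to just over 100 cells and TA grafts 16 to 67 cells. The supplement of the paper lists higher cell numbers for some of these grafts, and a time of the second sort up to a week later is stated in its text, so neither is certain. The grafts came from the same mice as the libraries before grafting, so they are separate libraries but not separate animals.

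EOM move the eye and arise from unsegmented head mesoderm, whereas the TA lifts the foot and arises from somites, and MuSCs are known to differ in gene expression by the muscle they come from. Homeobox factors bind DNA through a homeodomain, commonly at a TAAT core, and set regional identity in the embryo. The Lmx factors add LIM domains that bind partner proteins, with *Lmx1a* known from the roof plate and dopaminergic neurons and *Lmx1b* from the dorsal limb and the tissue around the eye. Alx factors pattern the mesenchyme of face and limb, Barx factors act in tooth, stomach, cartilage and muscle, and Pitx factors act in the hindlimb (*Pitx1*) and in lens, dopaminergic neurons and skeletal muscle (*Pitx3*).

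The stretches just upstream of 2 genes are shown for their contrast before grafting, as *Lmx1a* had reads in every EOM library and no TA library, and *Pitx3* had reads in every library of both muscles. Each is 249 bases of the GRCm38.p6 build before the RefSeq start, from chr1:167689308-167689556 on the plus strand and chr19:46148327-46148575 on the minus strand. Capitals mark the E-box CANNTG, its form CAGCTG that muscle regulatory factors bind, and the homeodomain core TAAT on either strand.
Lmx1a: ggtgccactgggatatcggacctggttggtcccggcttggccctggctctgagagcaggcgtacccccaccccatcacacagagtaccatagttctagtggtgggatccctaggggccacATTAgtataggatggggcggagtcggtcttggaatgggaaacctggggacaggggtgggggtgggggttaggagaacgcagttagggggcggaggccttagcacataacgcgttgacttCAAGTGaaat
Pitx3: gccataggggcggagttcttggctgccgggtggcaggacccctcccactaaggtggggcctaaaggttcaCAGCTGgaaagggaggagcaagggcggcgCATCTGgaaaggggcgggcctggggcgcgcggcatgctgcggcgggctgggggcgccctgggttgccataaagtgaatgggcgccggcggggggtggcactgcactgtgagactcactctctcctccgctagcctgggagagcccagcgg
The *Lmx1a* stretch holds 1 TAAT core and 1 E-box, and the *Pitx3* stretch holds 2 E-boxes, of which 1 is CAGCTG, and no TAAT core. Among 32851 promoters of the same length, 66.1% hold an E-box, 13.0% CAGCTG and 54.8% a TAAT core, so each of these matches except CAGCTG is present in most promoters. GC content was 59.0% for *Lmx1a* and 69.1% for *Pitx3*. The *Lmx1a* stretch lies in an intron of a longer annotated transcript, and the end of *Pitx3* in the deposited table lies inside its stretch. The promoter table held 4 of the 8 genes, and *Alx1*, *Alx4*, *Barx2* and *Pitx1* were the other 4.

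Values are reads per 1000000 reads (RPM), as deposited on a log2 scale, with the reads behind them recovered from the steps of the table. The 30 libraries held 963432 to 4169357 reads on genes, so 1 read stood for 0.350 to 1.55 RPM. Libraries were not stranded, with 49.6% to 50.5% of reads on the sense strand, so reads of antisense or overlapping genes cannot be told apart. Exons of *Alx1* share 243 bases with Gm17028, exons of *Pitx1* share 273 with Gm47071 and Gm28760, and those of *Pitx3* share 10 with *Elovl3*, while the other 5 members share none. Before grafting all libraries carried the MuSC markers, with summed levels of 14670 to 18496 RPM in EOM and 13499 to 22569 RPM in TA. The grafts carried less, 1403 to 13972 RPM in EOM and 324 to 10831 RPM in TA, and their summed endothelial markers reached 5288 and 6472 RPM. In a bulk sample fewer cells of a type and less RNA per cell cannot be told apart.

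**Figure D1:**
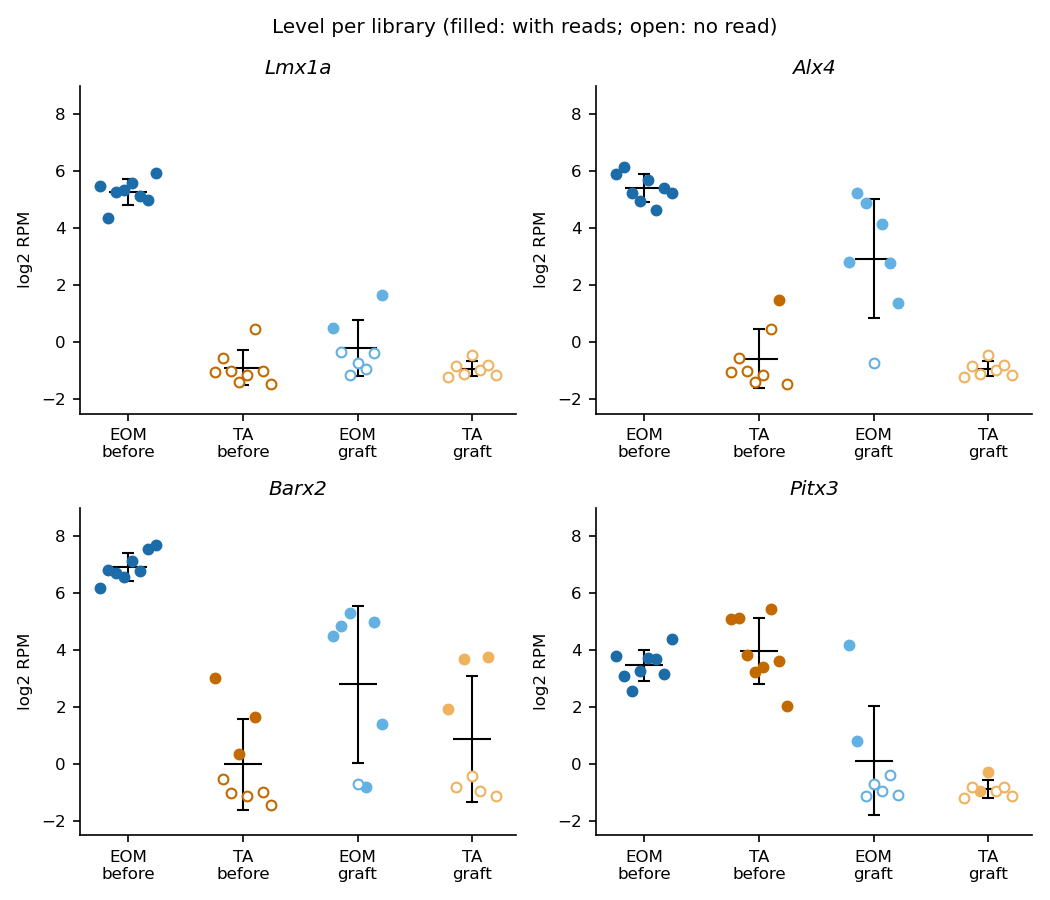
Level in log2 RPM of *Lmx1a*, *Alx4*, *Barx2* and *Pitx3* in every passing library, by group, where filled points had reads, open points had none, and black bars give the mean and SD. *Barx2*, *Alx4* and *Lmx1a* stood high in EOM before grafting, and *Pitx3* in both muscles before grafting.

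Before grafting EOM MuSCs carried *Barx2*, *Alx4*, *Lmx1a* and *Pitx3* in every library, and TA MuSCs carried only *Pitx3* in every library. An EOM library held reads of 5 to 7 of the 8 genes, with a median of 6, and a TA library of 1 or 2. Per kilobase of exon, *Barx2* had the highest level of the 8 in EOM, 64.9 ± 23.2 RPM per kb (SD, n = 8), and its range did not overlap that of the next. *Lmx1a* at 11.9 ± 3.58, *Pitx3* at 7.67 ± 3.05 and *Alx4* at 6.34 ± 2.21 RPM per kb followed with ranges that overlapped from each to the next, so their order is not set beyond their spread. *Alx1*, *Pitx1* and *Lmx1b* stood at 0.536, 0.451 and 0.392 RPM per kb, and *Barx1* had no read. In TA the order was different, with *Pitx3* first at 13.3 ± 9.57 RPM per kb and *Barx2* second at 0.792 ± 1.46 RPM per kb.

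*Lmx1a* (ENSMUSG00000026686, chr1:167689239-167848741 in GRCm38) encodes the LIM homeodomain factor of roof plate and midbrain. Its level in EOM before grafting had a lowest value of 20.8, a median of 39.7 and a highest value of 62.0 RPM, with a mean of 40.4 ± 12.2 RPM (SD, n = 8). Each of the 8 TA libraries held 0 reads, where 3 reads in each would have made 1.98 RPM on average. The groups therefore did not overlap. Mice of Experiment 1 had 34.9 ± 12.7 RPM (n = 3) and those of Experiment 2 43.7 ± 11.9 RPM (n = 5), so the experiments differed by less than the SD within either. In EOM grafts *Lmx1a* had 3 reads in mouse 4 of Experiment 1, 6 reads in mouse 6 of Experiment 2 and no read in the other 5, a mean of 0.651 ± 1.22 RPM (n = 7). The highest graft, at 3.14 RPM, lay below the lowest library before grafting, and the ratio of the means was 62.0, with a graft mean below the 1.92 RPM that 3 reads per library stood for. TA grafts again held no read.

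*Lmx1b* (ENSMUSG00000038765, chr2:33560965-33640511), its paralogue of the dorsal limb, was far lower. It had reads in 6 of 8 EOM libraries before grafting, from 2 to 16 reads, and a mean of 1.91 ± 1.89 RPM. In TA 1 library held 6 reads and the other 7 held none, a mean of 0.411 ± 1.16 RPM, so the groups overlapped. All 14 grafts were without a read of *Lmx1b*. At these depths 3 reads in each library stood for 1.92 RPM in EOM grafts and 1.78 RPM in TA grafts, so levels below these could not have been seen reliably.

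*Alx4* (ENSMUSG00000040310, chr2:93642384-93681339) encodes an aristaless-like factor of face and limb mesenchyme. Before grafting it ranged from 25.3 to 72.1 RPM in EOM with a median of 40.1 and a mean of 44.8 ± 15.6 RPM (n = 8). TA libraries held none of its reads except for 5 in mouse 5 of Experiment 2, which stood for 2.79 RPM. Its EOM and TA ranges did not overlap. In EOM grafts *Alx4* had 15 reads in mouse 4 of Experiment 1, and 43, 59, 0, 31, 8 and 5 reads in mice 1 to 6 of Experiment 2. It was thus read in 6 of 7 EOM grafts, with a median of 7.07 RPM, a highest value of 37.7 RPM and a mean of 14.5 ± 14.4 RPM. None of the 7 TA grafts held a read of it. The range in EOM grafts overlapped that before grafting, with 2 grafts above the lowest library before grafting.

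*Alx1* (ENSMUSG00000036602, chr10:103007847-103029051), which is needed for the face and the tissue around the eye, was read in 3 of 8 EOM libraries before grafting. These held 36, 9 and 1 reads, and the mean of 3.09 ± 6.67 RPM (n = 8) came mostly from mouse 3 of Experiment 1 with 18.9 RPM. *Alx1* had no read in TA before grafting, no read in EOM grafts and 4 reads in 1 TA graft.

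*Barx2* (ENSMUSG00000032033, chr9:31846097-31913462), a Bar-class factor known to act in MuSC growth and muscle regeneration, was the most abundant member. Before grafting its lowest, median and highest values in EOM were 72.6, 110 and 204 RPM, and its mean was 128 ± 45.6 RPM (n = 8). In TA 3 libraries held 15, 3 and 2 reads and the other 5 held none, with a highest value of 8.12 RPM and a mean of 1.56 ± 2.87 RPM. The groups did not overlap, and the means differed 81.9-fold. In EOM grafts *Barx2* had 48 reads in mouse 4 of Experiment 1, and 33, 77, 0, 1, 37 and 5 reads in mice 1 to 6 of Experiment 2, a mean of 17.9 ± 16.5 RPM with a highest value of 38.9 RPM. Every EOM graft lay below every EOM library before grafting, and the ratio of the means was 7.14. TA grafts held 8, 25 and 21 reads in 3 of 7 libraries, 4.31 ± 6.21 RPM, a range that overlapped both that of TA before grafting and that of EOM grafts.

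*Barx1* (ENSMUSG00000021381, chr13:48662998-48666507), the paralogue of tooth and stomach mesenchyme, was not detected before grafting in either muscle. Its only reads were 3 in the TA graft of mouse 3 of Experiment 2. That graft had 16 cells, the lowest summed MuSC markers of the 30 libraries at 324 RPM, and reads of *Alx1*, *Pitx1* and *Pitx3* as well.

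*Pitx3* (ENSMUSG00000025229, chr19:46135685-46148375), a paired-like factor that muscle cells of head and limb share, was the only member read in every library of both muscles before grafting. Before grafting it ranged from 5.93 to 21.04 RPM in EOM, with a median of 11.2 and a mean of 11.7 ± 4.66 RPM, and from 4.06 to 43.4 RPM in TA, with a median of 13.3 and a mean of 20.2 ± 14.6 RPM (n = 8 each). The EOM range lay inside the TA range. Between experiments the difference moved: in Experiment 1 TA had 34.0 ± 0.687 RPM (n = 2) and EOM 9.35 ± 3.95 RPM (n = 3), and in Experiment 2 TA had 15.6 ± 14.0 RPM (n = 6) and EOM 13.1 ± 4.85 RPM (n = 5). On the log2 scale EOM minus TA was -0.51 over both experiments and 0.05 in Experiment 2 alone. In EOM grafts *Pitx3* had 38 reads in mouse 4 of Experiment 1, 2 reads in mouse 1 of Experiment 2 and none in the other 5. In TA grafts it had 1 read in each of 2 libraries and none in the other 5. TA grafts did not overlap with TA libraries before grafting, whereas the EOM graft with 38 reads, at 17.9 RPM, stood among the EOM libraries before grafting.

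*Pitx1* (ENSMUSG00000021506, chr13:55825054-55836192), the factor that sets hindlimb identity, was near the limit of what these libraries can show. It was read in 6 of 8 EOM libraries before grafting, in 4 of them with a single read, and its mean was 1.20 ± 1.90 RPM. The most reads, 16, came from mouse 2 of Experiment 2, and that library also held the most *Lmx1b*, 16 reads, and summed leukocyte markers of 1833 RPM where no other EOM library before grafting passed 98.4 RPM. Its summed fibroblast markers, 2629 RPM, were also the highest of the EOM libraries before grafting. Its oligodendrocyte and Schwann cell markers summed to 2297 RPM. The part of these cells in the values was not tested. TA libraries before grafting, although from a hindlimb muscle, held no read of *Pitx1*. Among grafts it had 5 and 13 reads in 2 EOM libraries and 3 reads in 1 TA library.

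**Figure D2:**
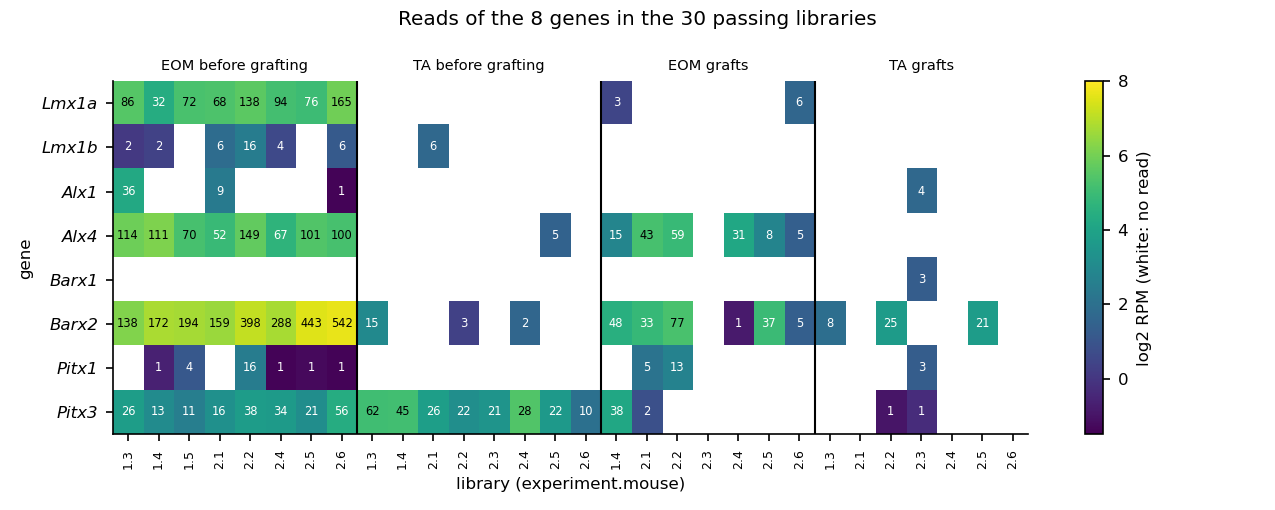
The 8 genes (rows) in the 30 passing libraries (columns, as experiment and mouse, grouped by muscle and stage), with log2 RPM as colour and the recovered reads as numbers, white where there was no read. Reads of *Alx4* appear in 6 of 7 EOM grafts and in no TA graft, while *Lmx1a* appears in 2 EOM grafts.

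In the limma fit before grafting, 437 of 13217 genes tested (3.31%) were called higher in EOM and 166 (1.26%) lower, and every EOM library lay above every TA library for 1.82% of the genes. On the log2 RPM scale, where a gene without a read stands at 0.9 of a read, EOM minus TA was 6.94 ± 0.58 (SE) for *Barx2*, 6.16 ± 0.48 for *Lmx1a* and 5.99 ± 0.53 for *Alx4*. *Lmx1b* differed by 1.06 ± 0.66 and *Pitx3* by -0.51 ± 0.48. These 5 members passed the filter on low levels, and *Alx1*, *Barx1* and *Pitx1* did not. Since this comparison chose the genes, nothing is read from their place in it. The same difference in Experiment 2 alone was 7.57 for *Barx2*, 6.33 for *Lmx1a* and 5.70 for *Alx4*.

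Whether the difference between EOM and TA persisted once both were in the same kind of host muscle was tested for each of the 8 genes by an exact permutation of the muscle labels over 7 EOM and 7 TA grafts (two-sided). Only *Alx4* passed, with a difference of 3.86 in mean log2 RPM and an exact p of 0.00117, where the smallest p this design allows is 5.83e-04. It was higher in 6 of 7 EOM grafts than in all TA grafts, and its mean was at least 8.16-fold higher, taking 3 reads per library as the limit in TA grafts. The p is not corrected for the 8 genes tested. Within Experiment 2 the difference was 3.83 with an exact p of 0.00433 (6 against 6 grafts), and Experiment 1 had 1 graft of each muscle, which allows no test. With the donor mouse as the unit, flipping signs over the 6 donors that had both grafts, the difference was 3.83 and the exact p was 0.0625, above the threshold, with 0.0312 as the smallest p that 6 donors allow.

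*Alx4* was the only 1 of 12377 genes, 0.00808%, with reads in at least 6 of 7 EOM grafts and in no TA graft. That pattern was taken from its own values after they were seen, so this is a description and no test. With no read in TA grafts, *Alx4* also passed the filter on low levels through EOM grafts alone. In the limma fit over all 12377 genes, in which 452 (3.65%) had an unadjusted p under 0.05, *Alx4* differed by 3.86 ± 0.97 (SE) with a p of 3.12e-04, but its adjusted p was 1.00 by Benjamini-Hochberg. No gene was called in that fit, 0% of those tested, and 1 gene was called with the donor mouse as a block, where the adjusted p of *Alx4* was 0.999. On recovered reads the adjusted p of *Alx4* was 1.00 with edgeR, which called 0 genes, and 0.00451 with DESeq2, which called 3 genes. A limma fit that shared its variance over all 4 groups gave 0.0451. Over 12 alternatives its adjusted p ran from 0.00451 to 1.00, so the call across all genes depended on the fit.

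The 3 EOM grafts and 3 TA grafts that failed the quality limits were not used above. They showed the same side for *Alx4*, with 17, 12 and 2 reads in the EOM grafts and none in the TA grafts. With them it was read in 9 of 10 EOM grafts and 0 of 10 TA grafts, and the difference was 3.26 with an exact p of 3.03e-04. The EOM graft without a read of *Alx4*, of mouse 3 of Experiment 2, held 16 cells, had 59.6% of its reads in mitochondrial genes and had no read of any of the 8 genes. Without it the difference was 4.47 with an exact permutation p of 5.83e-04, the smallest possible. It was left out after seeing the data. As the only passing EOM graft without a read of *Alx4*, its removal fixed that p in advance, so nothing is concluded from it.

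*Barx2* differed by 1.93 between EOM and TA grafts, with an exact p of 0.163 in the permutation test, and its adjusted p in limma was 1.00. It was 4.15-fold higher in EOM grafts by the ratio of means, and the groups overlapped, with 3 EOM grafts at 5 reads or fewer and 3 TA grafts at 8 reads or more. Its difference was 2.70 with an exact p of 0.0207 when the grafts that failed the quality limits were added, in which *Barx2* had 8, 96 and 150 reads in EOM grafts and 1, 0 and 0 in TA grafts. For *Lmx1a*, which had 9 reads in all EOM grafts together, the difference was 0.73 with an exact p of 0.0542. On the scale of log2(RPM + 1) that p was 0.462, and without the EOM graft of mouse 3 of Experiment 2 it was 0.0443, so at this depth no difference could be settled for *Lmx1a*.

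The other 5 members did not pass the permutation test. Their exact p was 0.205 for *Pitx3* (0.98), 0.250 for *Pitx1* (0.75), 0.600 for *Lmx1b* (0.09), 0.839 for *Alx1* (-0.22) and 0.839 for *Barx1* (-0.16), with the difference in mean log2 RPM of EOM minus TA in brackets. A difference for *Lmx1b*, which had no read in any graft, reflects the value given to 0 reads alone. The counts behind *Alx1* and *Barx1* were 4 and 3 reads, each in 1 TA graft. *Pitx3* rested on 1 EOM graft, and without that graft its difference was the lowest of those with 1 graft left out, 0.31.

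**Figure D3:**
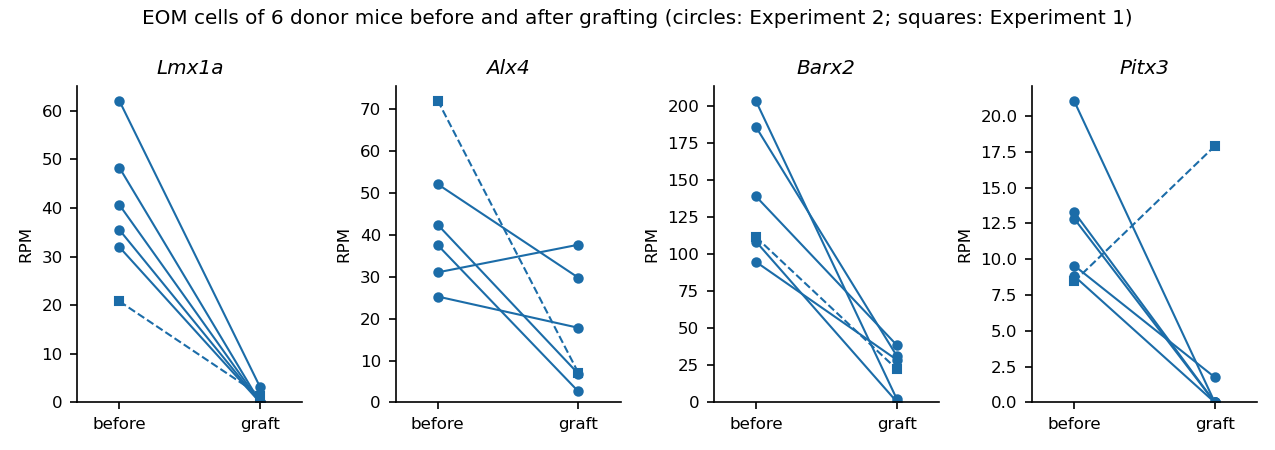
RPM of *Lmx1a*, *Alx4*, *Barx2* and *Pitx3* in EOM cells of 6 donor mice before and after grafting, with a line for each donor, circles for Experiment 2 and squares for Experiment 1. *Lmx1a* and *Barx2* were lower after grafting in 6 of 6 donors, and *Alx4* and *Pitx3* in 5 of 6.

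The 7 EOM grafts were then compared with the 8 EOM libraries before grafting, without pairing by donor except where a block is named. Of 13094 genes tested in EOM, 460 (3.51%) were called higher in grafts and 7302 (55.8%) lower, and the median log2 difference of all genes was -1.48, so levels are also given relative to this median. Most of those calls depend on the scaling, since centring each library on its median gave 871 higher and 634 lower, and edgeR gave 907 and 380. With the donor mouse as a block the calls were 315 higher and 4468 lower. *Lmx1a* stood at -5.47 ± 0.60 (SE), or -3.99 relative to the median, and *Barx2* at -4.13 ± 0.83, or -2.66 relative to it. *Alx4* stood at -2.47 ± 0.71, or -0.996 relative to the median. With the donor mouse as a block *Lmx1a* stood at -5.35, *Barx2* at -3.71 and *Alx4* at -1.81, where the median of all genes was -1.36. *Pitx3* stood at -3.35 ± 0.76, or -1.88, and *Pitx1* at 0.45 ± 0.75, or 1.93. The value of *Pitx1*, with reads in 2 of 7 EOM grafts, rests on the level given to 0 reads and turned to -0.05 on the scale of log2(RPM + 1). In 11.2% of genes every EOM graft lay below every library before grafting, and *Lmx1a* and *Barx2* were among them. As these libraries entered the choice of genes, the values are a description.

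The order *Lmx1a*, *Barx2*, *Alx4* from most to least reduced held under each other scaling. Centred on the median the differences were -4.22, -2.88 and -1.22, and after scaling without mitochondrial genes they were -4.40, -3.07 and -1.41. With edgeR they were -4.70, -1.89 and -0.63, and with DESeq2 -4.69, -1.82 and -0.52. The size for *Alx4* thus depended on the scaling, and its sign did not. For *Pitx3* under these 4 settings the size ranged from -1.62 with edgeR to -2.75 with DESeq2.

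Within donors the share of the earlier level that was left in the graft differed between genes. For *Lmx1a* the 6 EOM grafts held 0% to 6.80% of the RPM before grafting, with a median of 0%. *Barx2* kept 0.529% to 30.4%, with a median of 18.6%. *Alx4* kept 6.97% to 121%, with a median of 36.6%, and the donors were spread widely: 9.80% in mouse 4 of Experiment 1, and 121%, 57.1%, 70.5%, 16.1% and 6.97% in mice 1, 2, 4, 5 and 6 of Experiment 2. *Pax7*, the gene that drives the sort, kept 3.66% to 101%, with a median of 51.1%. *Pitx3* was at 212% in mouse 4 of Experiment 1, at 18.3% in mouse 1 of Experiment 2 and without a read in the other 4 donors.

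**Figure D4:**
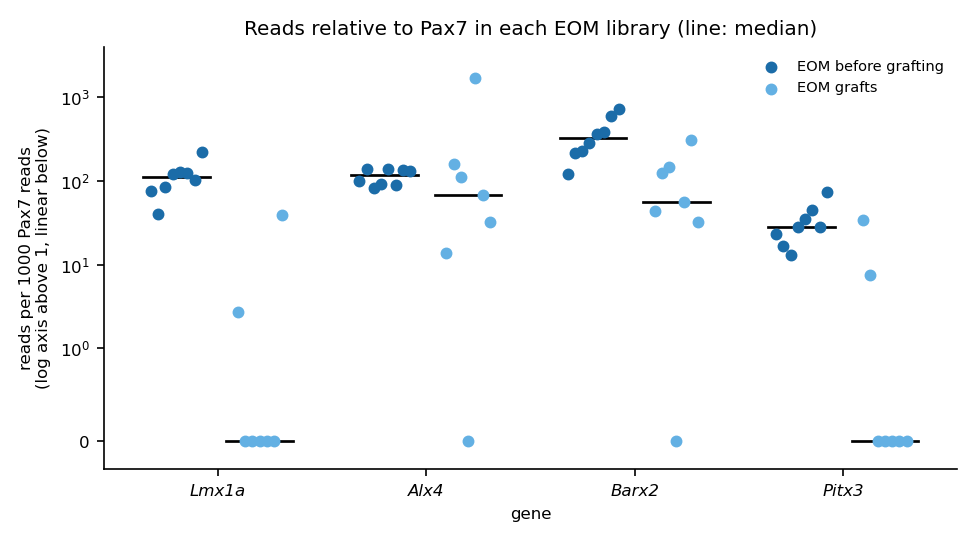
Reads of *Lmx1a*, *Alx4*, *Barx2* and *Pitx3* per 1000 *Pax7* reads in each EOM library before grafting and each EOM graft, on an axis that is logarithmic above 1 and linear below, with lines at the medians. *Lmx1a* lay at 0 in 5 of 7 grafts, and *Alx4* in grafts spread on both sides of its range before grafting.

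As a measure set within each library, reads were also given per 1000 reads of *Pax7*. *Pax7* had 562 to 1133 reads in EOM before grafting and 18 to 1100 reads in EOM grafts. *Alx4* had 82.5, 117 and 141 reads per 1000 *Pax7* reads before grafting (lowest, median and highest) and 0, 67.2 and 1722 in grafts. That highest value came from the graft of 9 cells, with 31 *Alx4* reads beside 18 *Pax7* reads. *Barx2* had 122, 326 and 721 before grafting and 0, 55.6 and 311 in grafts, and *Lmx1a* had 40.7, 111 and 219 before and 0, 0 and 39.0 in grafts. Both groups overlapped for *Barx2* and did not for *Lmx1a*, whose highest graft stayed just under the lowest library before grafting. *Pitx3* had 13.0, 28.3 and 74.5 before grafting and 0, 0 and 34.5 in grafts.

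In TA, 496 of 13076 genes (3.79%) were called higher in grafts and 4046 (30.9%) lower, with a median log2 difference of -1.09. Centred on the median the calls were 1003 higher and 743 lower, and with edgeR 782 and 402. Of the members, 2 passed the filter there. *Pitx3* stood at -4.84 ± 0.73 (SE), or -3.76 relative to the median. It was lower in 7 of 7 donors, with 0% to 7.75% of its earlier RPM left, whereas *Pax7* kept 1.37% to 91.4% in the same donors. Every TA graft lay below every TA library before grafting for *Pitx3*, as for 4.99% of genes tested. *Barx2* stood at 0.88 ± 0.90, or 1.97 relative to the median, and the ratio of its means was 2.76 in favour of the grafts, with 4 of 7 grafts and 5 of 8 libraries before grafting at 0 reads. TA grafts thus had no read of *Lmx1a*, *Lmx1b* or *Alx4* and at most 25 reads of *Barx2*.

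**Figure D5:**
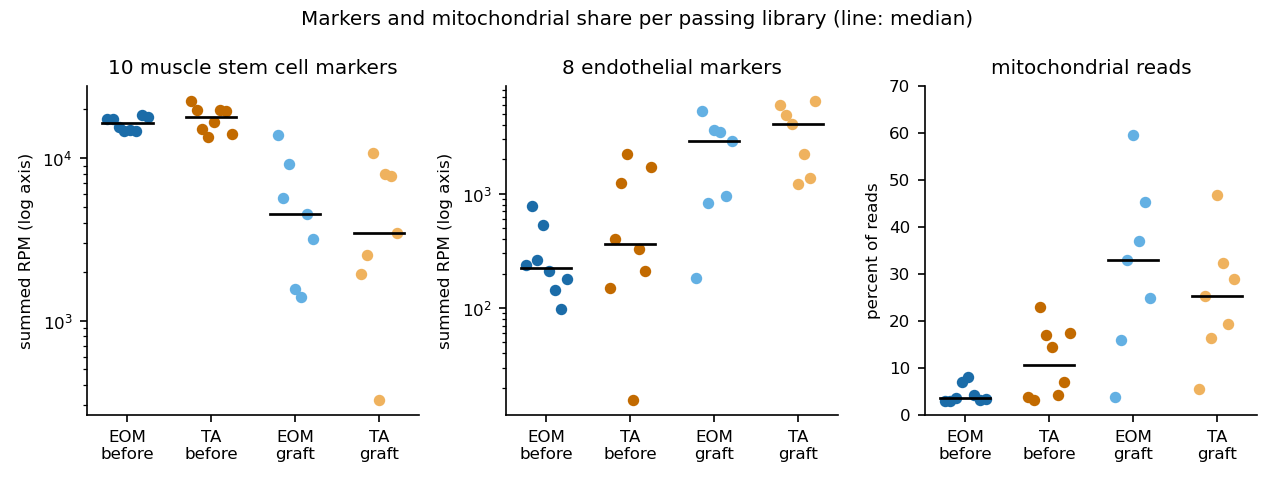
Summed RPM of 10 muscle stem cell markers and of 8 endothelial markers (log axes), and percent of reads in mitochondrial genes, in each passing library by group, with lines at the medians. MuSC markers were lower and endothelial markers higher in most grafts than before grafting, and mitochondrial reads reached 59.6% in an EOM graft.

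Markers of other cells moved with grafting, and their part in the members' values was not tested. Of 10 MuSC markers 9 were called lower in EOM grafts and 10 in TA grafts than before grafting, where 55.8% and 30.9% of all genes were. Their list medians were -1.99 in EOM and -2.80 in TA, against -1.48 and -1.09 for all genes. After centring on the median of all genes 2 and 9 of these markers were called lower. The same centring called 634 of 13094 genes lower in EOM and 743 of 13076 in TA. Of 8 endothelial markers 7 were called higher in each, with list medians of 5.14 in EOM and 3.10 in TA. Of all genes 3.51% were called higher in EOM grafts and 3.79% in TA grafts. Of the fibroblast and fibro-adipogenic markers tested, 1 of 9 was called higher and 1 lower in EOM grafts. In TA grafts 6 of 8 were called higher and 1 lower. Their highest sum, 16354 RPM, was in the EOM graft of mouse 1 of Experiment 2, beside 5684 RPM of MuSC markers. That graft also had the highest *Alx4* of the grafts, 37.7 RPM. EOM grafts of mice 1 to 6 of Experiment 2 had fibroblast sums of 16354, 4163, 1045, 975, 1251 and 1756 RPM. Their *Alx4* was at 37.7, 29.8, 0, 17.8, 6.84 and 2.62 RPM in the same order. TA grafts had fibroblast sums up to 4176 RPM and no read of *Alx4*. Before grafting the fibroblast markers had a list median of 2.38, EOM minus TA, with 2 of 9 called higher in EOM, where 3.31% of all genes were. Between EOM and TA grafts no gene was called. There endothelial markers had a list median of -1.08, pericyte and smooth muscle markers -1.15, fibroblast markers -0.35 and MuSC markers 0.55. These are EOM minus TA, against -0.09 for all genes. The part of these markers in the difference of *Alx4* was not tested. The EOM graft closest to libraries before grafting in these markers was that of mouse 4 of Experiment 1, with the most cells by the labels, 13972 RPM of MuSC markers, 182 RPM of endothelial markers and 3.85% mitochondrial reads. In it *Lmx1a* was at 1.41 RPM and *Alx4* at 7.07 RPM, both below all EOM libraries before grafting, *Barx2* was at 22.6 RPM, also below, and *Pitx3* at 17.9 RPM was within their range. Before grafting, *Pax7* was lower in EOM than in TA by 1.15 on the log2 scale, and summed oligodendrocyte and Schwann cell markers reached 2682 RPM in EOM and 637 RPM in TA. Of the 10 markers on that list 9 had reads in both muscles before grafting, and only *Mog* had none in either. In mice 1, 2, 4, 5 and 6 of Experiment 2 the glial sums in EOM before grafting were 1922, 2297, 67.2, 87.0 and 2682 RPM. In the same order *Lmx1a* was at 40.6, 48.3, 35.5, 31.9 and 62.0 RPM. *Barx2* was at 95.0, 139, 109, 186 and 204 RPM in these libraries. The part of glial markers in these levels was not tested.

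Genes that act with the members were taken from lists chosen with earlier results of these data known. Adjusted p-values of listed genes are therefore given as a description. Of 10 LIM domain partners, through which Lmx factors are known to work, 9 were tested before grafting. There 3.31% of all genes were called higher in EOM, and 1 partner was. *Lmo2*, a LIM-only adaptor, was higher in EOM by 1.38 ± 0.14 (adjusted p = 8.84e-07, limma). The list median was 0.42, and the median of all genes 0.30. In EOM grafts against before, 5 of 9 were lower, near the 55.8% of all genes, and 0 higher, with a list median of -1.16 against -1.48 for all genes, of which only *Lmo2* was also called when libraries were centred on their median (-1.77, adjusted p = 0.00831), and 3 were called with the donor as a block. In TA grafts 3 of 9 were lower (2 with the donor as a block), near the 30.9% of all genes. Of the 9, 1 was higher, where 3.79% of all genes were. The list median was -0.48 against -1.09. The gene that rose was *Ldb2*, a LIM domain binding factor that endothelial cells also express (3.29 ± 0.96, adjusted p = 0.0136, and 0.0635 in Experiment 2 alone), and of those that fell none passed after centring. Between EOM and TA grafts 0 of 9 passed, with a median of -0.51.

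Of 12 hindlimb and dorsal limb factors that act with *Pitx1* and *Lmx1b*, 5 were tested before grafting. There 1.26% of all genes were called lower in EOM, and 2 of these factors were. *Hoxc10* differed by -6.81 ± 0.49 and *Hoxc11* by -4.26 ± 0.55 (limma, SE). The paper had already reported *Hox* genes as higher in TA from these libraries, so no p-value is given for this comparison. Both are posterior Hox genes of the hindlimb, and EOM libraries held no read of either. TA MuSCs thus carried these factors with no read of *Pitx1*. In TA grafts against before, where 30.9% of all genes were called lower, 3 of 5 fell, *Hoxc10* by -4.43 ± 0.82 (adjusted p = 9.33e-04), *Hoxc11* by -3.69 ± 0.71 (adjusted p = 0.00125) and *Tbx4*, the T-box gene downstream of *Pitx1*, by -2.19 (adjusted p = 0.0248). The fall of *Tbx4* did not pass after centring (adjusted p = 0.245) or with the donor as a block (0.0645), and those of the Hox genes passed under both. In EOM grafts 0 of 2 tested passed.

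Of 15 craniofacial and periocular mesenchyme factors that act beside *Alx1* and *Alx4*, 5 were tested before grafting. There 3.31% of all genes were called higher in EOM, and 1 of these factors was. *Foxc1*, a forkhead factor of the mesenchyme around the eye, was higher in EOM by 3.94 ± 0.62 (adjusted p = 2.07e-04, limma), and the list median was 1.05 against 0.30 for all genes. In EOM grafts, where 3.51% of all genes were called higher and 55.8% lower, 1 of 7 rose and 1 fell. *Tfap2b*, an AP-2 factor of neural crest, rose (2.15 ± 0.67, adjusted p = 0.0115, limma). *Aldh1a1*, an enzyme that makes retinoic acid, fell (-2.46 ± 0.87, adjusted p = 0.0207), which did not pass after centring (adjusted p = 0.345). In TA grafts, where 3.79% of all genes were called higher and 30.9% lower, 1 of 5 was higher and 2 were lower. The higher gene was *Foxc1* (2.73 ± 0.90, adjusted p = 0.0245, and 0.0864 in Experiment 2 alone). Of the lower genes, *Aldh1a1* stood at -4.59 ± 0.79 (adjusted p = 5.72e-04). *Prrx1*, a mesenchymal homeobox gene, stood at -1.22 (adjusted p = 0.0343), which did not pass after centring (adjusted p = 0.549) or with the donor as a block (0.0514). Between EOM and TA grafts 0 of 6 passed. Among them *Aldh1a1* stood at 3.17 ± 1.14 (adjusted p = 1.00), in a fit that called no gene at all, *Alx4* included.

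Genes whose levels were most like those of a member over the 30 libraries are given as a description, since the libraries share groups, depth and the value given to 0 reads. For *Lmx1a* they were *Nrk*, 2310081O03Rik and *Bex4*, with Pearson r of 0.970, 0.944 and 0.934 among 14428 genes compared. *Nrk*, which encodes a kinase, had a mean of 13.3 ± 6.98 RPM in EOM before grafting, 0.0525 in TA, 0.150 in EOM grafts and 0 in TA grafts, so like *Lmx1a* it was almost without reads in grafts. For *Alx4* they were 3010003L10Rik, *Dmrta2* and *Vcan* (0.852, 0.848 and 0.822), and for *Barx2* they were *Dmrta2*, *Vcan* and *Pdgfc* (0.871, 0.850 and 0.825). *Vcan*, a large matrix proteoglycan, had 124 ± 46.5 RPM in EOM before grafting, 9.04 in TA, 27.8 ± 18.6 in EOM grafts and 4.74 in TA grafts, and *Pdgfc*, a growth factor, had 37.3, 1.81, 24.4 and 2.37 RPM in the same order. *Vcan* and *Pdgfc* thus had reads in 6 of 7 EOM grafts, as had *Alx4* and *Barx2*, whereas *Nrk* had reads in 1. *Dmrta2* had reads in 5 EOM grafts and 3010003L10Rik in 4. In TA grafts *Vcan* had reads in 6 of 7, *Barx2* in 3, *Dmrta2* in 2, *Pdgfc* in 1 and *Alx4* in 0. *Pitx3* was closest to Gm15612, Gm13703 and Gm10562 (0.921, 0.920 and 0.914), which had reads in all 16 libraries before grafting, and *Pitx1*, with reads in 9 libraries only, to 1700001K19Rik, *Itga11* and *Ccr1* (0.751, 0.737 and 0.703). Among the members themselves *Alx4* and *Barx2* had r = 0.814, *Lmx1a* and *Barx2* 0.798 and *Lmx1a* and *Alx4* 0.792, while *Pitx3* had 0.435 with *Lmx1a* and 0.248 with *Alx4*.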

How the data were processed

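RNA was sequenced by the authors with the G&T method in 40 libraries. According to the labels, reads were trimmed with Trim Galore 0.4.4 and aligned to GRCm38 with HISAT2 2.1.0. The table deposited by the authors gives log2 RPM per gene, made in Seqmonk from read counts corrected for library size. Other deposited tables list read counts per library and the percent that fell in genes, in exons and on the mitochondrial genome. The counting rule for genes that overlap is not given in the sources used here. RPM summed over genes to 1072417 to 1526294 per passing library, not to 1000000. The 40 bisulfite libraries were not analysed here.

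A gene with 0 reads carries the lowest value of its library, equal to 0.9 of a read. Scaling each library to this value gave whole reads back, and 99.9969% of the values above it came out whole within 0.1 of a read. A symbol present more than once was kept where it had most reads (66 dropped). The study tested counts with DESeq. As the deposited unit is log2 RPM, limma 3.58.1 (R 4.3.3) was the main test here, with variances moderated along the mean, on genes above log2 RPM 1 in at least 4 libraries, two-sided, called at an adjusted p under 0.05 and a log2 difference beyond 1. edgeR 4.0.16 and DESeq2 1.42.0 ran on recovered reads as alternatives. The fits were tested on simulated data. Exact permutations ran in Python 3.11.15.

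The members and lists were chosen with earlier results of these data known. Named genes were all members, the 3 genes most correlated with each member read in at least 8 libraries, and the called genes of each list. Libraries were grouped by label. Mice with the same number within an experiment are the same donor. Samples of the same donor deviated together only weakly, with correlations from -0.2178 to 0.1768. The limit of 3 reads per library, used where a group had no read, covers counting error only. Exon lengths came from GENCODE and promoter sequences from RefSeq (GRCm38.p6).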

Additional observations from a re-analysis of the deposited data

Results flagged for a closer look

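Of 18 groups of a member's log2 levels tested for a library far from the rest, 2 had one, and chance gives about 1 in 20. *Alx1* had 4 reads in the TA graft of mouse 3 of Experiment 2 and none in the other 6 TA grafts. *Pitx3* had 38 reads in the EOM graft of mouse 4 of Experiment 1, against 2 reads in the next and none in the other 5.

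Among libraries that failed the quality limits, reads stood where passing libraries of that group had none. The TA graft of mouse 4 of Experiment 1 held 4 reads of *Lmx1a*. The EOM graft of mouse 5 of Experiment 1 held 14 reads of *Lmx1b* and 6 reads of *Barx1*. The causes were not tested.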

How the results depend on the processing

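Depth limits the grafts, where 3 reads per library stood for 1.92 RPM in EOM and 1.78 RPM in TA, and all members but *Alx4* and *Barx2* had means near or below this, except *Pitx3* in EOM grafts, where 1 library held 38 of its reads. Between EOM and TA grafts limma called 0 genes, and also 0 with each library left out in turn, against 3 in Experiment 2 alone, 3 with 1 fit over 4 groups and 3 with DESeq2. Before grafting 603 genes were called, against 388 in Experiment 2 alone, 206 with all libraries and 206 with 1 fit over 4 groups, and 505 to 689 with a library left out. EOM grafts against before gave 7762 calls, against 1660 scaled without mitochondrial genes, 1505 centred, 1287 with edgeR and 1742 with DESeq2 (6787 to 8717 with a library left out). For TA the 4542 calls became 1954 in Experiment 2 alone, 1845 without mitochondrial genes, 1746 centred, 1184 with edgeR and 1696 with DESeq2 (3313 to 5090). Where the scaling or the set of samples did not itself change, the cause was not tested.

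With the donor mouse as a replicate block, 1 gene was called between grafts and 4783 in EOM grafts against before. The permutation test called 1 member, 0 with donors paired by sign flips, 2 with all libraries and 2 without the EOM graft of mouse 3 of Experiment 2, which was chosen after seeing the data, and 1 to 2 with a graft left out. Leaving out the TA graft of mouse 3 of Experiment 2 turned the differences of *Alx1* and *Barx1* to 0.17 each, where leaving out any graft gave -0.32 to 0.17 and -0.25 to 0.17. *Alx4* kept a difference of 3.48 to 4.47 and an exact permutation p of 5.83e-04 to 0.00233 with each graft left out, and *Barx2* 1.51 to 2.52 and 0.0798 to 0.271. Of 331 alternative values of members outside the comparison of grafts, 312 stayed within the spread between replicates, 19 moved and 0 changed the sign of a called value.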
